A study of Homo sapiens with 2 samples.

Results

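The genes described here encode the proteins of the cytosolic ribosome. They were taken by name from the platform annotation as every RPL or RPS symbol with a number and at most a suffix A, AL, X, or L with or without a number, plus the named proteins of the stalk and RPSA, of which RPLP1 and RPLP2 were found. Kinases of the RPS6K family, Y-linked copies and pseudogenes were left out. The rule found 75 genes of 18665, on 123 probes of 48802, with 26 genes of the small subunit and 49 of the large subunit. It used no measured value. Of ribosomal protein genes outside these 75, FAU alone is described, beside the other lists.

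A ribosome joins a small subunit, which reads the mRNA, to a large subunit, which links amino acids and releases the chain through an exit tunnel. Its proteins are made in balanced amounts, in the liver as in other tissues, and their mRNAs are among the most abundant of a growing cell. Most of these mRNAs begin with a C and a run of pyrimidines, the 5' terminal oligopyrimidine (5' TOP) tract, through which mTOR and LARP1 control their translation and stability.

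The samples were KYN2 cells, a human cell line from hepatocellular carcinoma. The knockdown group carried a stably expressed shRNA plasmid against HSF1 (heat shock factor 1, the transcription factor of the heat shock response) and was kept in puromycin. The control group is labelled as control, and the labels do not say what those cells carried or whether either line was 1 clone. Each group was measured on 1 array of the Illumina HumanWG-6 BeadChip type, and without replicates no p-value can be given. Below, "called" means at least 2-fold apart between the arrays. Lower RNA per cell and a different mix of cells cannot be told apart in such bulk samples.

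The median signal was 61.5 for control and 59.8 for knockdown-labelled cells, and 11707 and 12200 probes were detected. The number of arrays limits the precision. All 14 hepatocyte and liver cancer markers with a probe were detected on at least 1 array, with summed signals of 83170 (control) and 95730 (knockdown-labelled). Single markers differed in both directions, with ALB at 20949.9 against 19292.5 in control cells and APOB at 631.8 against 2566.0. None of 7 fibroblast or 4 endothelial markers was detected. Of 6 blood cell markers, control RNA gave 1 detected (CD68) and knockdown-labelled RNA 3 (CD14, CD68 and LYZ), and PTPRC was detected in neither. The summed blood marker signal was 852.6 (control) and 1454 (knockdown-labelled), and its part in the results was not tested. The brighter HSF1 probe read 164.3 for control and 58.2 for knockdown-labelled cells, and the dimmer, not detected, 77.9 and 81.3, but the brighter probe's detection p was 0.00527 in control and 0 in knockdown-labelled cells. Signal and detection thus run opposite ways, so the arrays are named by their labels and every direction below rests on those labels.

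The start sites show what most of these genes share and what others, some copies among them, lack. RefSeq promoters of build GRCh38.p14, each 250 bases before the annotated start and 50 after it, matched 63 of the 75 genes. Only 1 annotated start was used per gene, so a run at any other start was not seen. An unbroken run of at least 8 C or T letters overlapped the 10 bases around the start in 44 of the 63 (69.8%), against 11.0% of all 27305 promoters. The lines below give 20 bases before and 10 from the start for members on which the results turn, with that run in capitals. Some runs go on past the end of the line.
RPL36A (chrX:101390991-101391020, plus strand): ttccgtttgcctcgcggTTTCTTTCTTTCC
RPL29 (chr3:51995886-51995915, minus strand): tgctgcaccgcagCCCCTTTCTCTTCCggt
RPS21 (chr20:62387083-62387112, plus strand): tgccgggtgactagctgCTTCCTTTCTCTC
RPS23 (chr5:82278345-82278374, minus strand): ctccttcctgcggtgCTTCTCTCTTTCgct
RPS24 (chr10:78033843-78033872, plus strand): ttggccggcgaatcgtggTTCTCTTTTCCT
RPL26 (chr17:8383184-8383213, minus strand): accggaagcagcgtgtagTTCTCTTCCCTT
RPL26L1 (chr5:172958709-172958738, plus strand): caggcagtcttccaggggTCggcgaacgaa
RPS27 (chr1:153990742-153990771, plus strand): gcaggatttccgctttcgCTCCTTTCCggc
RPS27L (chr15:63157468-63157497, minus strand): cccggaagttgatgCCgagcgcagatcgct
RPL7L1 (chr6:42879596-42879625, plus strand): cgcgccggaagtgcggcgCCgtagctagga
RPL39 (chrX:119791621-119791650, minus strand): gctcgttcttccgccagCTTCCCTCCTCTT
The run was 14 bases at RPL26 and 9 at RPS27, and 2 at each of RPL26L1, RPS27L and RPL7L1, the retained copies of RPL26, RPS27 and RPL7. A short run was not particular to copies. The copy RPL36AL had a run of 15, while RPL4 and RPL9 had 1 and RPL27, RPS15 and RPS29 had 2. RPL7 itself was not among the 63. The values described below are given here by length of run. The 44 members with a run of at least 8 and detected had a median difference between the arrays, knockdown-labelled minus control in log2 units, of -0.15, and the 18 with a shorter run also -0.15. At 2-fold, 3 of the 44 were lower and 1 higher, and 0 of the 18 were either. The shares among all genes were 10.4% (lower) and 9.89% (higher), and neither set of members lay above them. Whether the run bears on the difference was not tested.

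Letters of the heat shock element, which HSF1 binds as inverted GAA units, were about as frequent in these promoters as in others. GAANNTTC occurred in 5 of 63 promoters (7.94%) against 6.87% of all, and TTCNNGAA in 5 (7.94%) against 7.84%. The 3-unit form, the first of these with NNGAA added, was searched on both strands and was in 0 of 63 and in 0.487% of all. The longer form holds the shorter forms, and a match is only a match of letters. CCGGAAG, the core bound by ETS factors, was in 22 (34.9%) against 10.7% of all. In RPL18, RPLP2, RPS14 and RPS18 the TTCNNGAA match read TTCCGGAA, which holds CCGGAA, so the letters of both motifs overlap there. RPS18 held 2 matches before the start, GAACCTTC and TTCCGGAA, and was lower at -0.515. Members with 1 match there lay from -0.145 (RPS9) to 0.199 (RPL18). Whether a match bears on the difference was not tested. The 250 bases before the start of RPL28, a large subunit gene that was 1.69-fold higher, hold 2 matches to GAANNTTC, shown in capitals.
RPL28 (chr19:55385682-55385931, plus strand): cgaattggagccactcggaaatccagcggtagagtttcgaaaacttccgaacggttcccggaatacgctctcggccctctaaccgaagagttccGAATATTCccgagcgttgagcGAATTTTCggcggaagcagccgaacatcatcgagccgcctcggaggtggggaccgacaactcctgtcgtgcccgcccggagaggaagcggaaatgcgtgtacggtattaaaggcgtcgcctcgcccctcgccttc

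As a group the ribosomal protein genes lay slightly below 0. Both RPL10 probes and the RPL3L probe were not detected on either array, which leaves 73 genes detected on both arrays. The signals of the 73, each taken from the gene's probe with the highest mean level, spanned 148.8 to 21554.8 in control cells (median 10020) and 110.3 to 22686.2 in knockdown-labelled cells (median 8926). After background correction and quantile normalization the median log2 difference was -0.15 with quartiles of -0.37 and 0.03. For all 7511 genes detected on both arrays the median was -0.06 with quartiles of -0.52 and 0.46. The interquartile range was 0.41 for the ribosomal protein genes and 0.98 for all genes, but signal level goes with that width. Among probes over 10000, where 40 ribosomal protein probes lie, the quartiles were -0.21 and 0.01 for them and -0.06 and 0.31 for other genes. From 250 to 1000 they were -1.11 and 0.07 for ribosomal protein probes and -0.57 and 0.51 for other genes, so bright probes of either kind were narrow and dim ones wide. In all, 49 of 73 (67.1%) lay below 0, against 53.3% of all genes.

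Few of them passed 2-fold. At least 2-fold lower were 4 of 73 (5.48%), beside 10.4% of all genes, and at least 2-fold higher was 1 (1.37%), beside 9.89%. At 1.5-fold, 10 were lower (13.7%), beside 22.3% of all genes, and 3 were higher (4.11%), beside 20.8%. In both directions the share of called genes lay below that of all genes. These shares were not matched for signal, and bright probes of either kind were narrow, so the part of signal level was not tested. Between the probes of 1352 genes with 2 detected probes, the differences scattered with an SD of 0.33 per probe, which holds no variation from culture to culture.

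**Figure D1:**
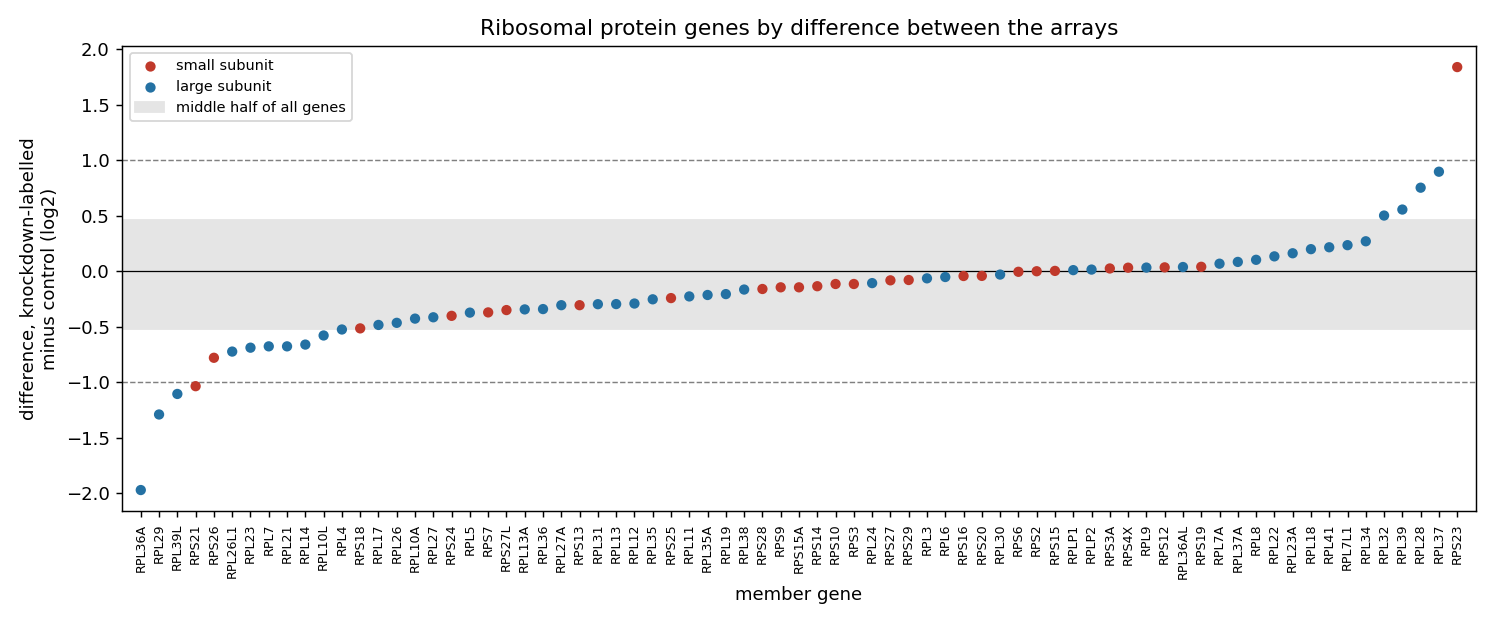
Difference between the arrays (knockdown-labelled minus control, log2) for each of the 73 ribosomal protein genes detected on both arrays, ordered by value and coloured by subunit. The grey band spans the quartiles of all genes (-0.52 to 0.46) and dashed lines mark 2-fold; RPL36A, RPL29, RPL39L and RPS21 lie below the lower line and RPS23 above the upper line.

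The deposited signals, before any normalization, showed the same direction more widely. Of the 73 genes, 62 had a lower signal on the knockdown-labelled array, with a median log2 ratio of -0.31. The median ratio of all genes was -0.14, and 59.3% of all genes were lower. At 2-fold 4 members were lower, beside 9.72% of all genes, and 1 was higher, beside 5.96%. At 1.5-fold 16 were lower, beside 23.8%, and 2 higher, beside 15.1%. Summed over the 123 probes, the signal was 943900 (control) and 772300 (knockdown-labelled), a ratio of 0.818, while that of all other probes was 0.921. Their share of all signal was 6.61% (control) and 5.91% (knockdown-labelled). These probes make up 40 of the 105 detected probes that have 1 gene symbol and a geometric mean signal over 10000. Probes without a symbol were not counted there, but quantile normalization used all 48802 probes. The ribosomal protein probes thus help set the distribution to which it fits both arrays. With that distribution taken from the other probes alone the median of the 73 was -0.19, and with median scaling it was also -0.19.

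**Figure D2:**
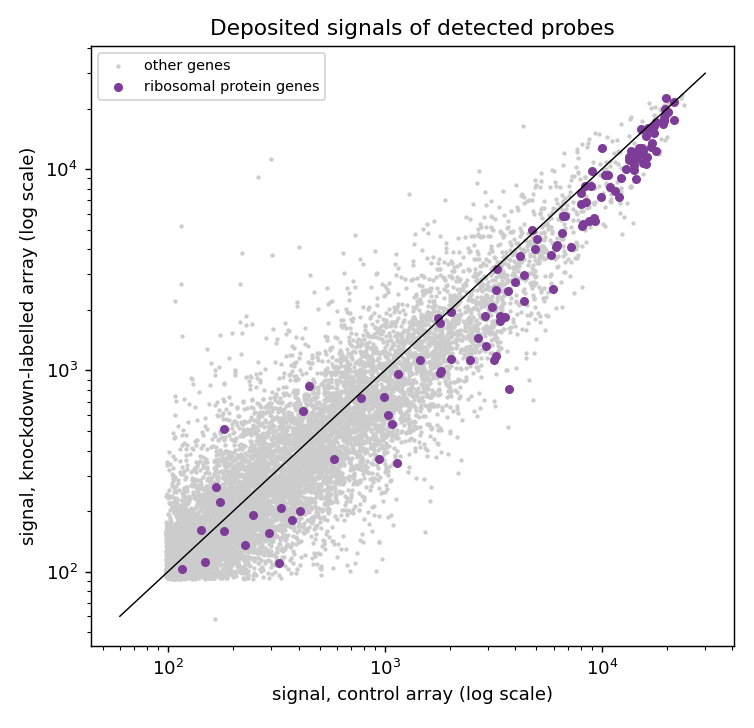
Deposited signals of every named probe detected on both arrays, control array across and knockdown-labelled array up, both on log scales. Ribosomal protein probes are in purple and other named probes in grey. Most purple points lie below the line of equal signal, as do 62 of the 73 genes by their chosen probe.

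By the brightest probe of each gene, the large subunit had the lower median and the small subunit the larger share below 0. The median was -0.21 over 47 large subunit genes and -0.12 over 26 small subunit genes, while 63.8% of the large and 73.1% of the small subunit genes lay below 0. Of the large subunit genes 8 were at least 1.5-fold lower (17.0%) and 2 higher, and of the small subunit genes 2 were lower (7.69%) and 1 higher. Both subunits lay below the shares of all genes, 22.3% lower and 20.8% higher. The medians lay 0.10 apart, which is a description without a test.

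RPL36A had the lowest difference of all members. Its protein sits near the site through which spent tRNA leaves the large subunit. Its signals were 325.7 in control and 110.3 in knockdown-labelled cells, 3.92-fold lower after normalization with a difference of -1.97. The detection p on the knockdown-labelled array was 0.00395, so the lower level lies near the detection limit, and the difference was -1.51 without background correction. A further RPL36A probe, at 55.7 and 51.8, was not detected on either array. RPL36A lies on chromosome X, and its 20 nearest detected genes had a median of 0.69, in the opposite direction.

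RPL29 and RPS21 were lower on bright probes. RPL29, a large subunit protein also known to bind heparin, had signals of 3248.9 and 1184.6, a difference of -1.29 or 2.45-fold lower. Its further probe went from 3178.3 to 1131.3, with a difference of -1.33, so both probes gave nearly the same value. RPS21, a small subunit protein, went from 5956.5 to 2554.1 on its only probe, a difference of -1.04. It stood just past the 2-fold line. RPS26, which lines the channel where mRNA leaves the small subunit, was the nearest inside it, from 4373.1 to 2203.8 with a difference of -0.78. Its dimmer probe, from 293.5 to 156.5, gave -1.06.

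The other members at least 1.5-fold lower belong to the large subunit. RPL26L1, the copy of RPL26, had signals of 1792.7 and 974.6 and a difference of -0.72. RPL23, which faces the small subunit and can bind MDM2, went from 2687.7 to 1451.1, with a difference of -0.69. RPL7 went from 1036.3 to 602.6 and RPL21 from 7249.1 to 4090.7, each with a difference of -0.68. RPL14 went from 3383.4 to 1864.5, with a difference of -0.66, and its dimmer probe gave -1.34. All 5 were lower by signal as well as after normalization. RPL10L (-0.58) lay just outside the 1.5-fold line, at signals of 148.8 and 112.1.

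RPS23 was the only member called higher, and it was so on a dim probe. RPS23 lies at the decoding centre, where the small subunit checks codon against anticodon. Its only probe read 180.4 for control and 510.6 for knockdown-labelled cells, 3.58-fold higher with a difference of 1.84. RPL37, of the large subunit, went from 165.7 to 264.2, with a difference of 0.90. A further RPL37 probe went from 77.7 to 126.2 and was detected on the knockdown-labelled array alone. RPL28 went from 420.9 to 625.8, with a difference of 0.75. These 3 genes, all those at least 1.5-fold higher, had signals under 1000 on both arrays. RPL39, of the exit tunnel, was the highest of the bright probes, from 10015.8 to 12776.1 with a difference of 0.56.

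The medians also differed between ranges of signal. Among detected ribosomal protein probes with a geometric mean signal of 1000 to 4000, 22 of 27 lay below 0 (81.5%) and the median was -0.66. In that signal range 53.3% of all detected probes with 1 gene symbol lay below 0, and the median of other genes was -0.06. From 4000 to 10000 the median of 26 ribosomal protein probes was -0.28, against -0.02 for 283 others. Over 10000 it was -0.09 over 40 probes, against 0.12 for 65 others. From 250 to 1000 it was -0.68 over 13 probes, against -0.05, and under 250 it was -0.31 over 10 probes, against -0.10. In each range the ribosomal protein probes had the lower median, with the widest gaps from 250 to 4000.

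**Figure D3:**
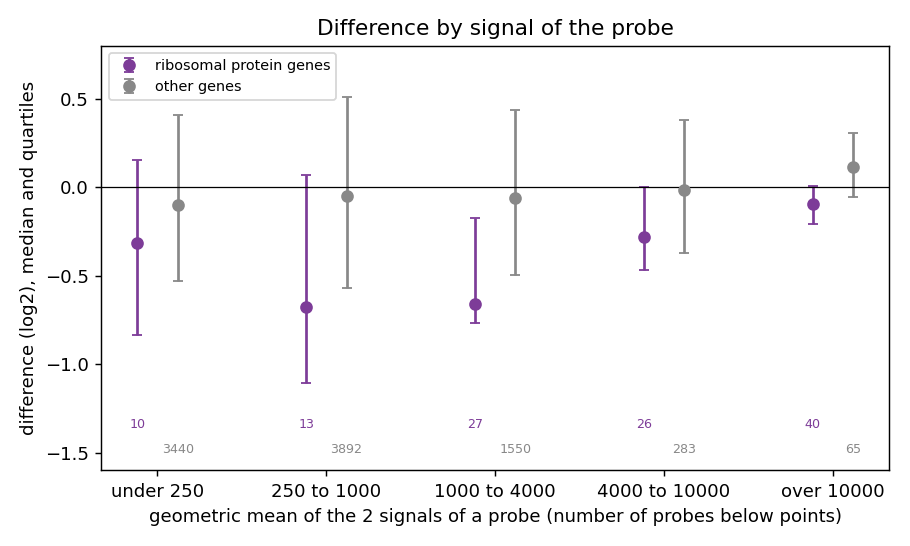
Median difference (log2) with lower and upper quartiles for detected probes in 5 ranges of signal, ribosomal protein probes in purple and other named probes in grey, with the number of probes printed below. The purple medians lie below the grey in every range, with the widest gaps from 250 to 4000.

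Probes of the same gene differed by signal too. Of 36 ribosomal protein genes with several detected probes, the dimmest probe gave a lower difference than the brightest in 33 (91.7%), and the median gap was -0.27. Over all genes with several detected probes the share was 60.4%, and for other genes the median gap was -0.07. With every probe over 1000 the count was 22 of 24 (91.7%), beside 56.2% of 160 other genes. RPL6 had signals of 19538.4 and 18572.0 on its bright probe, a difference of -0.05, and of 2464.4 and 1124.4 on its dim probe, a difference of -0.95. RPL8 gave 0.10 on its bright probe and -0.63 on its dim probe, and RPL9 gave 0.03 and -0.71. Probes of 1 gene can bind different transcripts or copies. The part of signal level, of transcript choice and of copies in these gaps was not tested. Since the brightest probe stands for each gene, the values of the whole group rest on that choice. With the mean of all detected probes the median of the 73 genes was -0.25, and 5 rather than 4 were at least 2-fold lower. Under that setting the median of all genes was -0.07, and 10.3% of all genes were at least 2-fold lower.

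**Figure D4:**
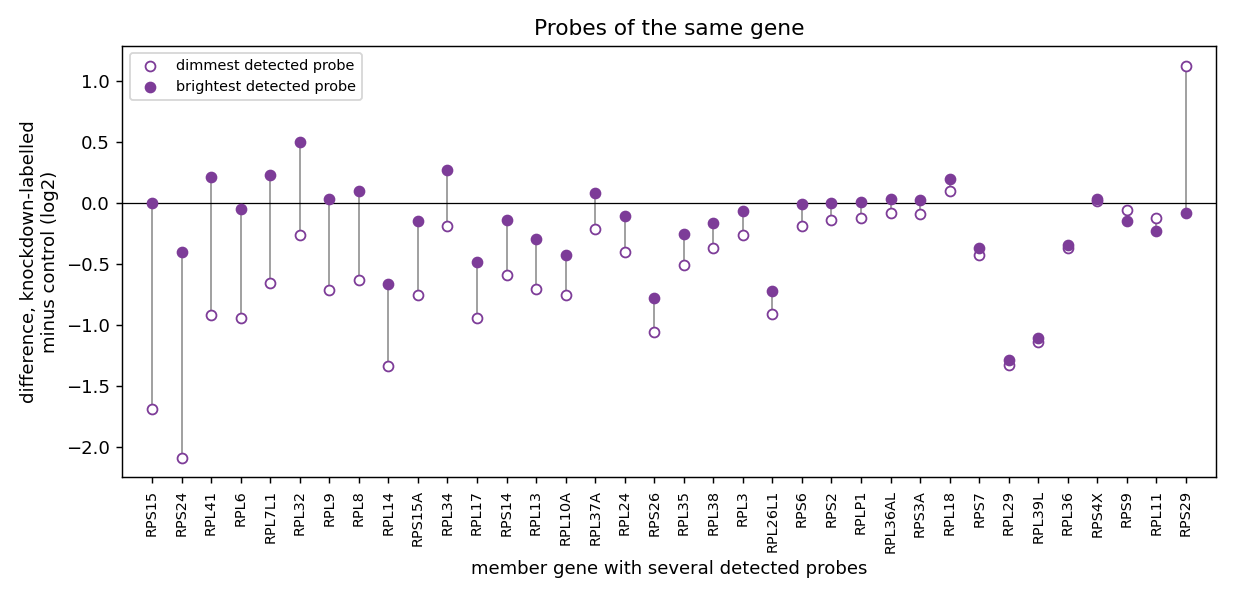
Differences (log2) of the dimmest (open) and brightest (filled) detected probe of each of the 36 ribosomal protein genes with several detected probes. The open point lies lower in 33 genes; RPS15 and RPS24 have the widest gaps, and RPS29, RPL11 and RPS9 have the opposite order.

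RPS24, RPS15, RPL41 and RPS29 had probes that differed by more than 2-fold in what they showed. RPS24, mutated in Diamond-Blackfan anaemia, has alternative last exons, and its probes are annotated to different transcripts. The probe for NM_001026 went from 3740.4 to 810.9, 4.26-fold lower with a difference of -2.09, the lowest of any detected ribosomal protein probe. The probe for NM_033022 went from 6179.3 to 4085.9, with a difference of -0.40. For RPS15, a head protein of the small subunit, 1 probe went from 1132.1 to 346.7 (-1.69), while the others went from 13392.1 to 11520.7 (0.00) and from 8902.7 to 8216.7 (0.02). All 3 are annotated to the same transcript. RPL41, the smallest ribosomal protein, gave 0.22 on a probe with signals of 19716.2 and 22686.2, and -0.92 on a probe with 226.0 and 135.4. RPS29, a zinc-binding head protein, went the other way, with 1.13 on its dim probe (445.9 and 840.2) and -0.54, -0.13 and -0.08 on the other 3. No gene had probes at least 1.5-fold apart from 0 in opposite directions.

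Paralogues were set side by side by each gene's own difference. RPL39 and RPL39L encode near-identical proteins of the exit tunnel, and RPL39L is best known from testis and some cancers. RPL39L had signals of 406.4 and 199.7, a difference of -1.11, and its further probe gave -1.14, while RPL39 was at 0.56. The differences of the pair were 3.16-fold apart. RPL36A (-1.97) and its intronless copy RPL36AL (0.04) were 4.03-fold apart. RPL36AL had signals of 8044.4 and 7658.2 on 1 probe and of 4914.9 and 4029.9 on the other. RPL26 (-0.47) and RPL26L1 (-0.72) lay 1.20-fold apart on the same side of 0. RPL26 went from 8166.1 to 5347.7.

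RPS27 and RPS27L also lay 1.20-fold apart. RPS27L, a p53 target, went from 3103.1 to 2076.2, a difference of -0.35, and RPS27 from 19438.9 to 17902.7, a difference of -0.08. RPL7 (-0.68) and RPL7L1, a copy with a role in ribosome assembly, were 1.88-fold apart by the bright RPL7L1 probe, which went from 4775.3 to 4961.4 (0.24). The dim RPL7L1 probe, from 2022.9 to 1141.1, gave -0.66 and lay beside RPL7. RPL3, which lies at the catalytic centre of the large subunit, went from 15022.1 to 12593.1 (-0.06), while its striated muscle copy RPL3L was not detected. RPL10 had no detected probe, and RPL10L, its retrogene known for a role in spermatogenesis, was detected on both arrays. RPL22, which can bind viral RNA, went from 1798.6 to 1711.5 (0.13). A probe can also bind RNA of a near-identical copy or of a processed pseudogene, of which this family has many, so the split between copies is uncertain.

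**Figure D5:**
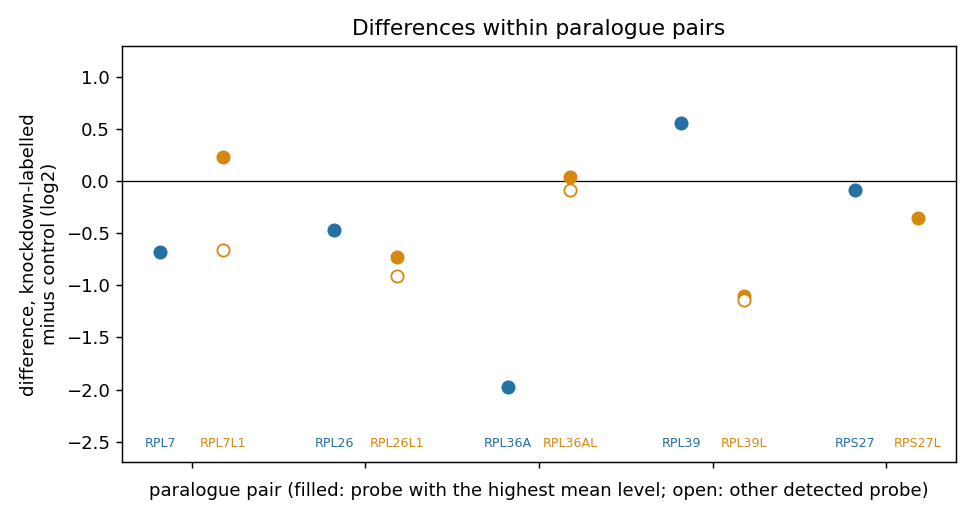
Differences (log2) of every detected probe in the 5 paralogue pairs detected on both arrays, first gene in blue and copy in orange. RPL36A and RPL39L lie below 2-fold lower while RPL36AL and RPL39 do not, and the open RPL7L1 point lies near RPL7.

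No functional part of the ribosome had a median past 1.5-fold. The stalk proteins RPLP1 and RPLP2, which recruit elongation factors, lay at 0.01 each, from 17769.3 to 17180.3 and from 17426.3 to 16475.8. Further RPLP1 probes gave -0.12 and 0.29. RPL5 and RPL11, which carry the 5S RNA and bind MDM2 when ribosome assembly fails, were at -0.37 and -0.23. RPL5 went from 6212.0 to 4205.2, and the RPL11 probes from 14079.8 to 10503.0 and from 12915.2 to 10046.0. Of 8 exit tunnel genes 6 lay below 0, with a median of -0.28, from RPL4 at -0.53 to RPL39 at 0.56.

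The 11 small subunit genes of the head had a median of -0.08 and the 14 of the body -0.14. RPS6, the substrate of S6 kinase, had -0.01 and -0.19 on its probes, at signals of 14812.6 and 12816.0 on the brighter. RPS2, where the mRNA enters, was at 0.00, from 21554.8 to 21627.5. Below 0 lay 67.1% of the 73 members and 53.3% of all genes. Of 16 members mutated in Diamond-Blackfan anaemia, a failure of red cell production, 14 lay below 0 (87.5%), with a median of -0.24. None was called, and RPS26 alone was 1.5-fold lower (6.25%). Of all genes, 10.4% were at least 2-fold lower, 9.89% at least 2-fold higher and 22.3% at least 1.5-fold lower.

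The genes lie on 21 chromosomes, and their neighbours gave no common pattern. For each member the 20 nearest detected genes that are no member (fewer near chromosome ends) had medians from -0.46 to 0.75. Across the 73 members, which share the 2 arrays, the member's difference and that median had r = 0.06, given as a description. RPL39 (0.56) and RPL36A (-1.97), both on chromosome X, lay among genes with medians of 0.75 and 0.69, and RPS4X (0.03) among genes at 0.03. RPS23 (1.84) and RPL37 (0.90) lay on chromosome 5 among genes at 0.24 and 0.51.

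Other genes that work with the ribosomal proteins were set beside them by lists. FAU, which encodes a ribosomal protein fused to a ubiquitin-like domain, went from 7485.2 to 9238.4, a difference of 0.47. Of 19 other 5' TOP mRNAs detected on both arrays, 1 was at least 2-fold lower and 0 higher, with 13 below 0 (68.4%) and a median of -0.18. Of all genes 10.4% were lower, 9.89% higher and 53.3% below 0. The lower one was HNRNPA1, which binds RNA in splicing, at -1.49. Within 2-fold lay EEF1D (-0.93), of elongation, and EIF3K (-0.83), of initiation. EIF4A2, an initiation helicase, was at 0.76. EEF1A1, the main elongation factor, had signals of 23394.0 and 23387.6, a difference of 0.00. Both lie near the highest signals of the arrays, 23895 (control) and 24818.2 (knockdown-labelled). Whether signals this high still follow the amount of RNA was not tested.

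Most carriers and assembly factors of single ribosomal proteins lay below 0. Of 18 detected, 16 lay below 0 (88.9%, beside 53.3% of all genes), and the median was -0.31. At least 1.5-fold lower were 6 (33.3%, beside 22.3% of all genes), and 1 was called lower (5.56%, beside 10.4%). That 1 was RRS1, which helps to load the 5S particle, from 1451.4 to 414.3 with a difference of -1.75. Within 2-fold lay IPO5 (-0.87), an import receptor, BCCIP (-0.85), a carrier of RPL23, and HEATR3 (-0.84), a carrier of RPL5. GRWD1, the carrier of RPL3, was at -0.73. Their part in the ribosomal protein values was not tested.

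Of 11 genes of mTOR and LARP1 control detected on both arrays, 1 was called higher and 1 lower, with a median of 0.22. These counts are near the shares of all genes, 9.89% and 10.4%. DEPTOR, an inhibitor of mTOR, went from 119.5 to 228.7 (1.29) and LARP4, which protects mRNA tails, from 445.8 to 198.0 (-1.26). RPS6KB1, the S6 kinase, was at -0.77 and TSC1, a brake on mTOR, at 0.73. LARP1 was not detected on either array. Of 6 genes of the 5S particle and MDM2 checkpoint, CDKN1A, a p53 target that halts the cell cycle, was called higher at 3.36 and RRS1 lower at -1.75. RRS1 and RPF2 are also in the list of carriers and assembly factors. NCL, the nucleolar protein nucleolin, lay within 2-fold at -0.97, as did RPF2 at -0.53, and MDM2 was not detected on either array.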

How the data were processed

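Per the labels' protocols, RNA was extracted with Trizol, cleaned on columns with DNase I, and labelled with the Ambion MessageAmp kit. The deposited table of non-normalized values holds bead intensity on a linear scale for 48802 probes and, per the file headers, a detection value. The deposited detection values form a fraction between 0 and 1 and go up with signal, so 1 minus each was taken as its detection p, though the brighter HSF1 probe breaks that order. The authors' processed table holds log2 values centred near 0 whose baseline is unknown, and it was used for differences alone. The scanner is not given in the sources used here.

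Gene names came from the platform annotation, in which 27577 probes had 1 symbol, 13 several and 21212 none, and 27540 probes matched the NCBI gene table (GRCh38.p14). The neqc function (limma 3.58.1, R 4.3.3, offset 16, log2) corrected background and normalized by quantiles. The offset understates folds of dim genes. A gene took its probe with the highest mean level, and was detected at a detection p under 0.01. The procedure was tested on simulated data. Every member could be named. Given in full were members at least 1.5-fold apart, paralogue pairs, RPLP1, RPLP2, RPL5, RPL11 and members not detected on both arrays. Members chosen beyond that rule, such as those with widely differing probes, were picked after their values were seen. Of the other lists, up to 4 genes with the largest difference were given, with FAU, and GRWD1, EEF1A1, LARP1 and MDM2 were added after seeing their values. The members, lists and signal ranges were chosen with earlier results of these data known. Alternatives were no background correction, median scaling, quantiles from other probes, offset 50, the authors' values, mean of probes, a detection p under 0.05 and no detection filter.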

Additional observations from a re-analysis of the deposited data

How the results depend on the processing

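The median of the ribosomal protein genes lay below 0 under all 10 alternatives, and RPS23 was the only gene called higher under 9 of them, with RPS29 beside it for the dimmest probe. No paired analysis was possible because each group holds 1 array. The median of -0.15 moved to -0.25 with the mean of detected probes. In 2 alternatives chosen after seeing the data it was -0.31, with the dimmest detected probe of each gene and with deposited signals that were not normalized. With the dimmest probe 8 genes were at least 2-fold lower and 2 higher, 22 were at least 1.5-fold lower, and the subunit medians lay 0.22 apart. Of all genes under that setting 10.9% were lower and 9.65% higher at 2-fold, and 23.5% lower at 1.5-fold. With signals not normalized 16 were at least 1.5-fold lower, beside 23.8% of all genes. RPL39L was no longer 2-fold lower without background correction (-0.94), at offset 50 (-0.97) and in the authors' values (-0.94), and was so in signals not normalized (-1.02). Of the 73 genes 9 changed sign under median scaling, 3 with quantiles from other probes, 9 with the mean of probes, 12 with the dimmest probe and 13 without normalization. The share of signal was 0.894 of its control value, or 0.908 with background subtracted. Single arrays limit every value, and for dim probes such as RPL36A, RPL37 and RPS23 so does the closeness to background. The brightest probes, such as that of RPS2, lay near the highest signals, 23895 (control) and 24818.2 (knockdown-labelled). Whether their differences are understated there was not tested. The cause of the dependence on the probe was not tested.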
